A study of Mus musculus with 49 samples.

Results

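The genes described here are the protein-coding genes of DNA replication licensing and of the replication fork. They were taken by symbol: the origin recognition complex (Orc1 to Orc6), the licensing factors Cdc6 and Cdt1 with the inhibitor Gmnn, the MCM genes, the initiation genes Cdc7, Dbf4, Cdc45 and Gins1 to Gins4, the replicative polymerases and primase, Pcna with its loader, the RPA genes, Fen1 and Lig1. The rule found 48 genes among 54838 annotated genes, of which 21921 were protein-coding. All 48 passed the filter on low counts in both experiments (at least 1 read in 25% of the embryos), so none was left out.

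The measurements were 5′ read counts from single late 2-cell mouse embryos, the stage of major zygotic genome activation (ZGA), from F1 C57BL/6JxCBA/H parents. Every embryo was depleted by Trim-Away or was its control. In this method an antibody is injected into the zygote, collected 17 to 18 h after hCG, and mRNA for mCherry-Trim21, a ubiquitin ligase that binds antibodies and sends the bound protein to degradation, follows 4 h later. All embryos were lysed 48 h after hCG. The TBP LOF group received a mouse monoclonal antibody against TBP, the TATA-binding protein (9 embryos), and its mIgG CONTROL received normal mouse IgG (9 embryos after 1 of 10 fell below the minimum of 500000 reads). The FOXJ3 LOF group received a rabbit polyclonal antibody against the transcription factor FOXJ3 (16 of 17 embryos passed) and its rIgG CONTROL normal rabbit IgG (13 embryos), in 2 batches. An injected antibody and Trim21 mRNA were thus common to all groups, and no uninjected embryo was analysed.

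Replication is licensed when the origin recognition complex, with CDC6 and CDT1, loads the MCM2 to MCM7 helicase onto DNA, a step that geminin (Gmnn) blocks by binding CDT1. The kinase CDC7 with its activator DBF4, together with CDC45 and the GINS complex, then turns the loaded helicase into the active CMG helicase. At the fork, primase and DNA polymerase alpha lay down primers, polymerases delta and epsilon extend them, RFC loads the PCNA clamp, RPA coats single-stranded DNA, and FEN1 and LIG1 finish and join Okazaki fragments. Many of these genes are textbook targets of E2F transcription factors, and the oocyte passes a store of their mRNA and protein to the embryo, so that a count in a 2-cell embryo is the sum of maternal and newly made transcripts.

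The 47 embryos held 1103569 to 5434808 counted reads. ERCC spike-in RNA, which the embryos of the TBP experiment received from 1 lysis buffer, took 2.67 to 6.12% of the reads in TBP LOF and 2.22 to 3.25% in mIgG CONTROL embryos. The TBP experiment was therefore scaled to the spike-ins, as the study did, and a normalized count is then a measure per embryo. A lower value cannot tell fewer transcripts in each cell from fewer or smaller cells. Mitochondrial reads were 4.69 to 9.85% in TBP LOF and 3.00 to 8.51% in mIgG CONTROL. Of 8 genes that mark the 2-cell stage, all 8 had reads in each group. Their summed level in RPM, reads scaled to library size, was 351 to 1020 in TBP LOF against 143 to 549 in mIgG CONTROL. Tcstv3 made up most of that difference (mean 505 against 98.7 RPM), and was the only one of the 8 past the threshold with spike-in scaling (log2 fold change 1.77, edgeR adjusted p = 4.15e-05), while Zscan4c (-1.24), Zscan4f (-0.13) and Tdpoz4 (-0.72) were below 0 without passing it. Of 6 oocyte genes, all 6 had reads in each group, with a sum of 1717 to 3155 RPM against 740 to 2239 RPM. With spike-in scaling Oosp1, which held most of that sum, was at a log2 fold change of 0.07 (adjusted p = 0.901), Gdf9 at 0.09, Nlrp5 at 0.08, Mos at 0.08 and Bmp15 at 0.69, none past the threshold, and Zp3 was lower (-1.83, edgeR adjusted p = 2.29e-05). Cumulus and granulosa markers summed to at most 8.90 RPM in a TBP LOF and 24.997 RPM in an mIgG CONTROL embryo. Fshr, Has2, Ptx3 and Inha of that list had no read in either group. Tnfaip6 was lower in TBP LOF (mean 1.16 against 4.58 RPM, log2 fold change -2.46, edgeR adjusted p = 0.00866). The other genes of that list with enough reads to be tested, Foxl2 (2.03), Star (0.56) and Cyp19a1 (0.52), were above 0 without passing the threshold. The part of these levels in the results below was not tested. Tbp mRNA itself was lower in TBP LOF (log2 fold change -2.14, edgeR quasi-likelihood adjusted p = 5.28e-06), and Foxj3 mRNA was not changed past the threshold in FOXJ3 LOF (0.28, adjusted p = 0.861). Trim-Away acts on protein, so neither value measures the depletion.

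In control embryos Gmnn was the most abundant of these genes. Levels between genes are compared here as RPM per kb, counted reads scaled to library size and to kilobases of exon, although reads from 5′ ends need not grow with gene length. Gmnn stood first, at 262 ± 49.4 RPM per kb (SD, n = 9) in mIgG CONTROL and 323 ± 138 (SD, n = 13) in rIgG CONTROL embryos. Orc6 followed at 85.1 ± 20.5 and 118 ± 30.3 RPM per kb, then Pole4, a small subunit of polymerase epsilon, at 76.6 ± 20.3 and 107 ± 36.2. Pcna was at 59.2 ± 15.4 RPM per kb and Rpa2 at 57.8 ± 16.9 in mIgG CONTROL. In that group's order, only 2 of 47 neighbouring pairs differed by more than their joint SD between embryos, Gmnn from Orc6 and Cdc45 from Rpa3. Most neighbours thus differed by less than the spread between embryos, and the order of the means was not tested. At the low end stood Pold1, the catalytic subunit of polymerase delta, at 0.219 ± 0.266 RPM per kb, Orc3 at 0.721 ± 0.533 and Mcm8 at 0.786 ± 0.542. Over the 48 genes the mean RPM of both control groups had a Spearman rho of 0.982 (a description, as both share the assay and gene models). In mIgG CONTROL, 45 of the 48 genes had a read in every embryo. The strand setting of the counting was not given in the sources used here, and without strand, reads of a gene and of one on the opposite strand cannot be told apart where their exons overlap. Such an overlap was largest for Gins2 (2758 bases), Fen1 (2039), Mcm9 (1748), Orc2 (1150), Rfc2 (952), Orc4 (582), Rfc5 (499), Mcm7 (385) and Orc1 (376), and smaller for Lig1, Cdc45, Rfc4, Orc6 and Pole.

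The comparison of TBP LOF with mIgG CONTROL embryos asks which replication transcripts depend on TBP at ZGA. After TBP LOF, 29 of the 48 genes were lower and none was higher (edgeR, adjusted p below 0.05 over 19357 genes and TE families). The lowest were Gins1, at 17.5-fold below the control level, Gins3, Cdc7, Prim2 and Pold2. By step, all 3 loading genes and 6 of 7 firing genes fell, beside 3 of 6 clamp genes and 1 of 3 RPA genes (differences between steps were not tested). Counts by step, here and below, stand beside the shares that follow and are not read as a trait of a step. Across everything tested, 29.7% of features were called lower and 1.34% higher. Among protein-coding genes with a mean of at least 10 normalized counts the share called lower was 49.8%, and of the 43 replication genes at that level 28 were lower (65.1%). The median log2 fold change of the 48 genes was -1.20, beside -0.72 for all features, and that of the 43 was -1.21 beside -0.92 for protein-coding genes at that level. At an unadjusted p below 0.05, 33 replication genes were lower and 0 higher, beside 7596 of all 19357 features in either direction. DESeq2 with the same size factors also called 0 higher.

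**Figure D1:**
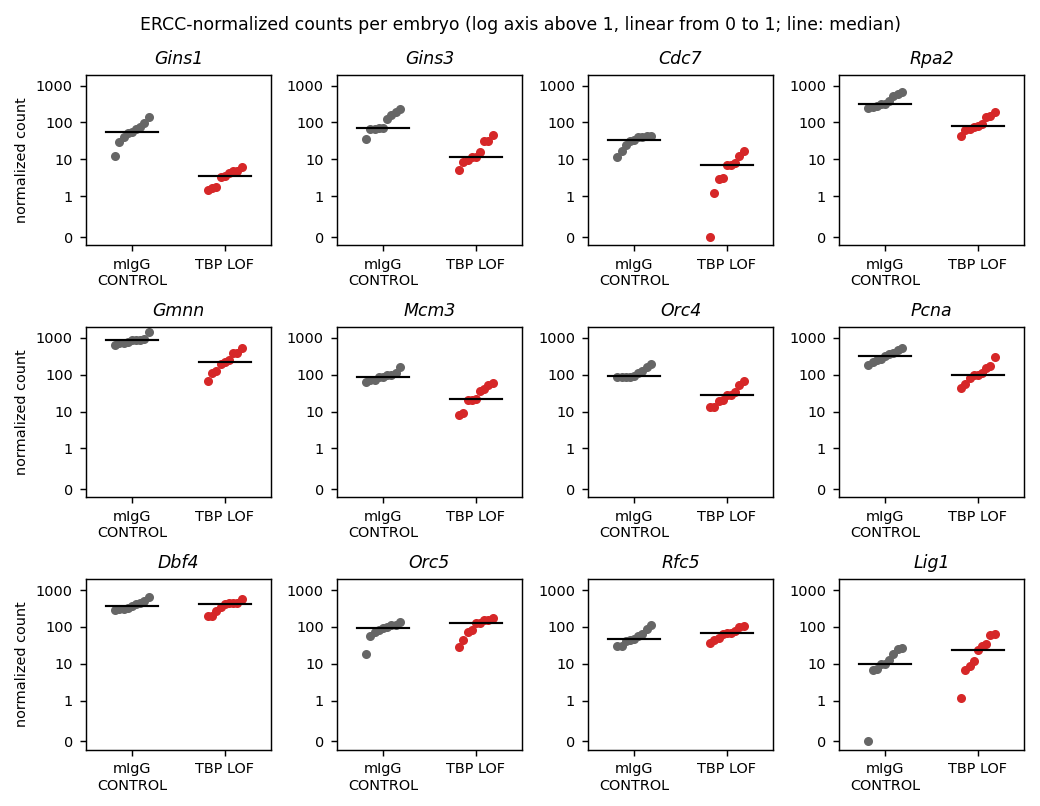
ERCC-normalized counts (y, log above 1 and linear from 0 to 1) of 12 replication genes in each of 9 mIgG CONTROL and 9 TBP LOF embryos (points), with the group median (line). Gins1, Rpa2, Gmnn, Mcm3 and Orc4 lie wholly lower in TBP LOF, which was so for 6.69% of all features tested. The groups overlap for Gins3, Cdc7, Pcna, Dbf4, Orc5, Rfc5 and Lig1.

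The size of the change varied between TBP LOF embryos. The median of the 48 genes' log2 differences from the control mean lay between -2.18 (embryo 11) and -0.34 (embryo 8), with a median of -1.03 over the 9 embryos, and between -0.32 and 0.55 in the 9 mIgG CONTROL embryos. Embryos 8 and 10 were nearest to the controls, and embryos 9 and 11 farthest. Embryo 8, with 34 of the 48 genes below the control mean, lay just below the lowest control. That was mIgG CONTROL embryo 3, at -0.32 with 38 genes below. Embryo 8 had the lowest ERCC share of the TBP LOF group (2.67%) and embryo 7 the highest (6.12%), followed by embryo 11 (6.03%). Counts scaled to spike-ins rise as that share falls, so the share is no separate observation. Without embryo 8 the count of lower genes was 31, and without embryo 9 it was 26. Per the study's methods the embryos came from at least 3 experiments, and the labels do not say which embryo came from which, so values within an experiment cannot be given.

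**Figure D2:**
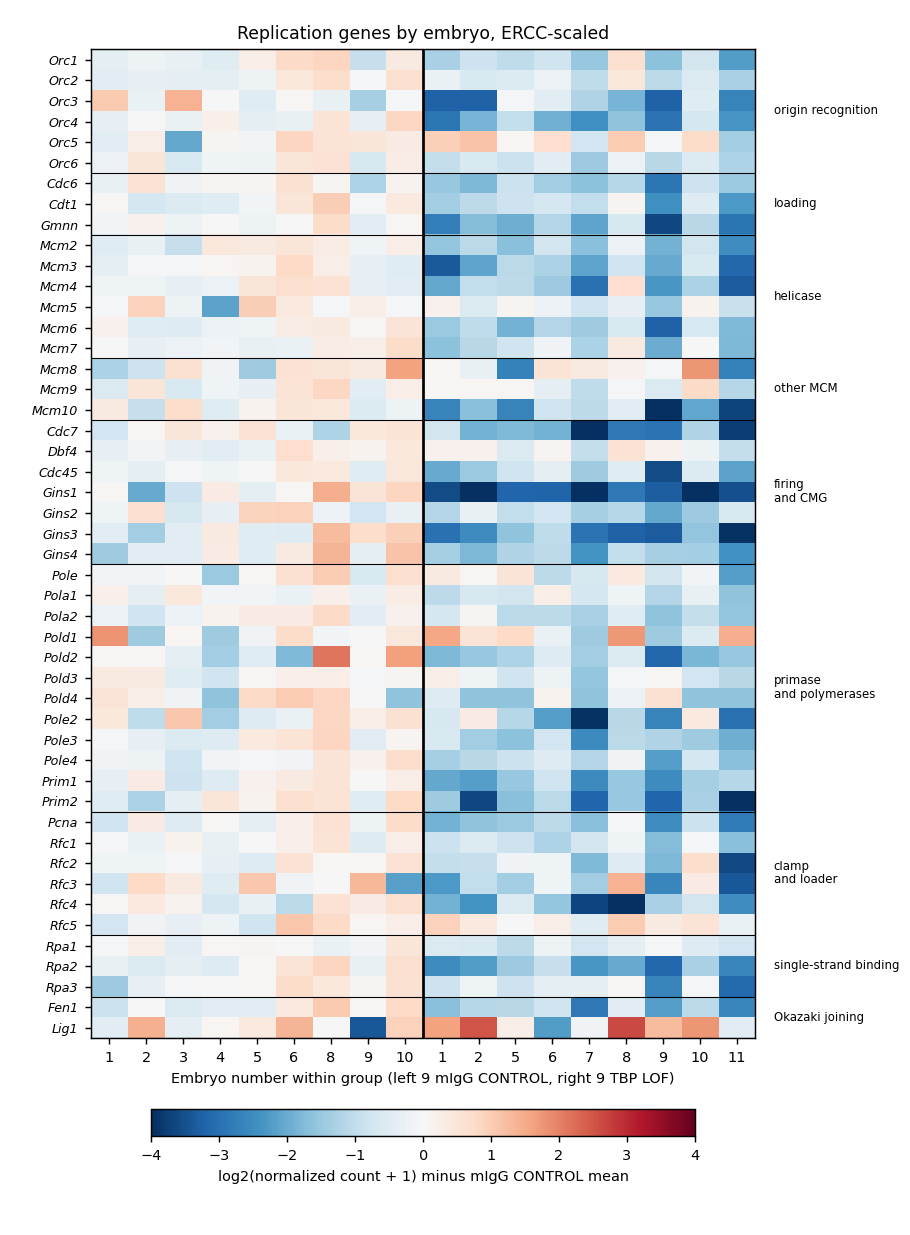
Each cell is the log2(normalized count + 1) of 1 gene (rows, by role) in 1 embryo (columns, 9 mIgG CONTROL on the left and 9 TBP LOF on the right) minus the mean of the mIgG CONTROL embryos, with colours ending at 4 either way. Most rows turn blue in TBP LOF, Gins1 in all 9 embryos, and the columns of embryos 9 and 11 are the bluest.

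Scaling set how many of these genes were called. With TMM, which measures each gene against the bulk of its own library, the median of all features moved from -0.72 to 0.11. Under TMM, 13 of the 48 genes were lower and 5 higher (edgeR), beside 12.7% of all features lower and 12.8% higher, and 23.4% lower and 19.8% higher among protein-coding genes of at least 10 normalized counts. All 13 were among the 29. They were Orc4, Gmnn, Mcm3, Mcm10, Cdc7, Gins1, Gins3, Gins4, Prim1, Prim2, Pcna, Rpa2 and Fen1. The 5 higher under TMM were Orc5, Mcm9, Dbf4, Rfc5 and Lig1, none of which passed the threshold with spike-in scaling of the 18 embryos and no further term. The median of the 48 genes lay 0.48 below that of all features with ERCC scaling, as log2 values -1.20 and -0.72, and the TMM medians were -0.44 and 0.11.

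**Figure D3:**
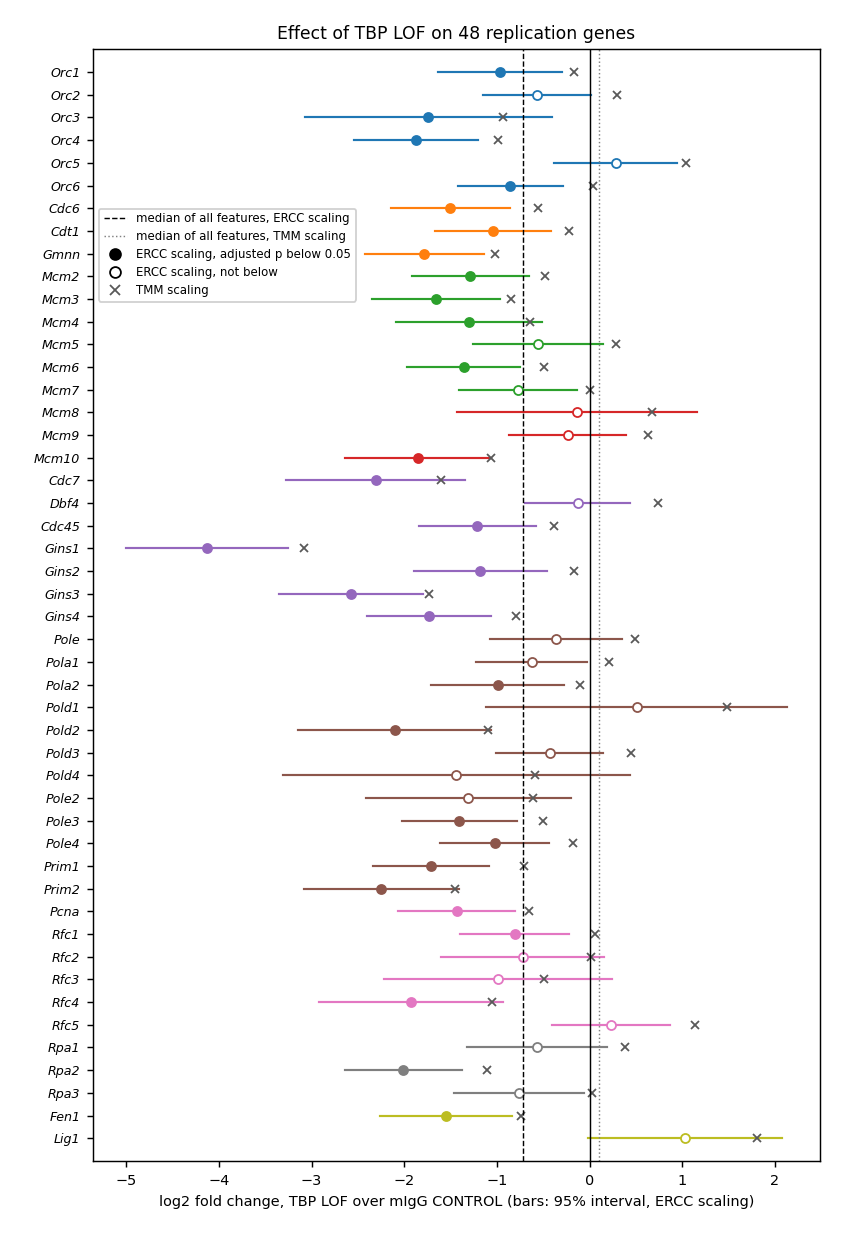
Log2 fold change of TBP LOF over mIgG CONTROL (x) for the 48 genes (y), with circles and 95% intervals for ERCC scaling (filled where the adjusted p was below 0.05, coloured by role) and crosses for TMM scaling. The dashed and dotted lines are the medians of all features, at -0.72 and 0.11, and Gins1 lies farthest left under both scalings.

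The promoters of 6 genes from RefSeq (build GRCm38.p6, 250 bases before to 50 after the annotated start, read 5′ to 3′ on the gene's strand) are shown for the sequence in front of genes at both ends of the response. They were taken from the 32 genes with 1 start in the table: the 3 with the smallest adjusted p in TBP LOF and the 3 with the log2 fold change nearest 0. Capitals mark the letters TATAAA, TTTCCCGC, TTTGGCGC or CCAAT on either strand, which are the TATA box core, 2 forms of the E2F site and the CCAAT box.
Gins3: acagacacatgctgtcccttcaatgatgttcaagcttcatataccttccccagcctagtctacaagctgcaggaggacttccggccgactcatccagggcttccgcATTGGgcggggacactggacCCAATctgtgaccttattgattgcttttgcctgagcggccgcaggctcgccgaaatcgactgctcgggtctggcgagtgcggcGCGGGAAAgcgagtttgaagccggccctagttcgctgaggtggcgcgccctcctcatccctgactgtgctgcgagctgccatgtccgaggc
Rpa2: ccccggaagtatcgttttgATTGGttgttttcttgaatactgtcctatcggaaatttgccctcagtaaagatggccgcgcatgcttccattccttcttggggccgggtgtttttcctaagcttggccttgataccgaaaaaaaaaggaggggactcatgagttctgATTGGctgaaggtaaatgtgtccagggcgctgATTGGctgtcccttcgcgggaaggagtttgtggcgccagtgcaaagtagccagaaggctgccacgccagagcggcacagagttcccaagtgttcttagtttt
Prim1: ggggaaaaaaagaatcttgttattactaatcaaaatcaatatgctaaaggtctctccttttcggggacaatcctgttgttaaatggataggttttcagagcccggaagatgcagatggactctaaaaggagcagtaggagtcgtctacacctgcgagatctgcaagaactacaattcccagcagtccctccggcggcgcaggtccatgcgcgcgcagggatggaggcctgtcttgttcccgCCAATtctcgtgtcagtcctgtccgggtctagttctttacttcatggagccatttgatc
Dbf4: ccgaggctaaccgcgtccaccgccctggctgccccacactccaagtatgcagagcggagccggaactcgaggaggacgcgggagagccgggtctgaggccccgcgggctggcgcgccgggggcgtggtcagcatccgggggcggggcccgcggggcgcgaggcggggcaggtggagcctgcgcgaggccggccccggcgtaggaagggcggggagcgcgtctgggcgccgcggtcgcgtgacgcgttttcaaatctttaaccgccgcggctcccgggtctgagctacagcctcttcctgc
Mcm8: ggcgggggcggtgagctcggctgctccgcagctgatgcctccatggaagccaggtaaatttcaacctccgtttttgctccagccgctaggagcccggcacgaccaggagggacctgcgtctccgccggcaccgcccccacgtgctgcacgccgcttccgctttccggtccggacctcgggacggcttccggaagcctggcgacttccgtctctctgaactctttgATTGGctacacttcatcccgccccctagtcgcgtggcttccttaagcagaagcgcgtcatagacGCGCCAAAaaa
Rfc5: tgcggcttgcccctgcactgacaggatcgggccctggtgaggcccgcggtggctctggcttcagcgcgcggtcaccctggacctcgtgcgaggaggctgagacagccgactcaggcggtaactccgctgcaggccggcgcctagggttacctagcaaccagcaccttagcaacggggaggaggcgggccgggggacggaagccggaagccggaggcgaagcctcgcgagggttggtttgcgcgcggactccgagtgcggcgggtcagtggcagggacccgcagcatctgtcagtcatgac
These lie at chr8:95633309-95633608 (+ strand), chr4:132768110-132768409 (+), chr10:128014965-128015264 (+), chr5:8422667-8422966 (-), chr2:132815891-132816190 (+) and chr5:117388974-117389273 (-). None of the 6 holds TATAAA. Positions below give the leftmost base of a match, where base 1 is the annotated start. Gins3 holds TTTCCCGC on the minus strand from base -41 with CCAAT at -124 and, on the minus strand, at -144. Rpa2 holds CCAAT on the minus strand at -231, -84 and -52, and Prim1 holds it at -9. Mcm8 holds CCAAT on the minus strand at -25 and TTTGGCGC on the minus strand from base 40, inside the transcribed part. Dbf4 and Rfc5 hold none of the 4 motifs, and their promoters are 74.7% and 69.3% G and C.

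The table gave promoters for 40 of the 48 genes. It held none for Gmnn, Mcm4, Gins1, Gins2, Gins4, Pole, Prim2 and Rfc2. Of the 50 promoters of these 40 genes, 16 held an E2F form on either strand (32.0%), against 1.56% of all 32851 promoters. CCAAT was in 52.0%, against 37.4% of all, and TATAAA in 6.00%, against 13.6%. The median G and C content was 62.3% in the 50 promoters and 52.7% in all, and the shares were not matched for it. TATAAA was found for Cdc45, Pold2 and Fen1, and for no promoter in the sense direction between 50 and 11 bases before the start, where 2.40% of all promoters held it. Among genes lower in TBP LOF, 7 of 23 held an E2F form, and among those not past the threshold 8 of 17. These are matches of letters, which do not show binding, and their relation to the response was not tested.

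Origin recognition genes mark where replication can start. In TBP LOF 4 of the 6 were lower. Orc4 had 13.1, 27.5 and 66.6 normalized counts (lowest, median and highest embryo) in TBP LOF and 84.9, 89.5 and 192 in mIgG CONTROL. Every TBP LOF embryo was below every control embryo, which was so for 6.69% of all features tested. The fitted log2 fold change was -1.87 (SE 0.33, edgeR adjusted p = 1.07e-05). Its exons overlap those of Acvr2a and Mbd5 on the opposite strand. Orc6, the smallest subunit, had 169, 257 and 390 against 299, 412 and 692 normalized counts, with 5 of 9 TBP LOF embryos below the lowest control (log2 fold change -0.85, SE 0.28, adjusted p = 0.0154), and its sign turned under TMM (0.04). Orc3 was also lower (-1.74, SE 0.67, adjusted p = 0.0390), from a median of 7.99 control counts, and so was Orc1 (-0.97, SE 0.33, adjusted p = 0.0211). Orc2 (-0.57) and Orc5 (0.28) did not pass. Orc1 missed the threshold without mIgG CONTROL embryo 6 (adjusted p = 0.0558) or 8 (0.0565). Orc3 missed it without any of TBP LOF embryos 1, 2, 8, 9 and 11 or mIgG CONTROL embryos 1 and 3 (adjusted p 0.0530 to 0.112), and Orc2 passed without TBP LOF embryo 8 (-0.73, adjusted p = 0.0465).

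All 3 licensing genes fell, both the loaders and their inhibitor. Gmnn had 68.2, 222 and 545 normalized counts in TBP LOF embryos and 640, 857 and 1435 in mIgG CONTROL embryos, with no overlap. The fitted log2 fold change was -1.78 (SE 0.32, adjusted p = 1.24e-05). Cdc6, an ATPase that recruits the helicase to origins, had 11.6, 32.5 and 51.2 against 39.0, 99.3 and 143, and 6 of 9 TBP LOF embryos were below the lowest control. The fitted log2 fold change was -1.50 (SE 0.32, adjusted p = 0.000168), and that of Cdt1, its loading partner, -1.04 (SE 0.31, adjusted p = 0.00734). Under TMM only Gmnn of these 3 was called lower.

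Of the 6 helicase genes, Mcm2, Mcm3, Mcm4 and Mcm6 fell and Mcm5 and Mcm7 did not pass. Mcm3 had 7.97, 21.8 and 58.5 normalized counts in TBP LOF against 63.9, 87.7 and 158 in mIgG CONTROL, without overlap (log2 fold change -1.65, SE 0.35, adjusted p = 0.000129). Mcm6 had 23.2, 84.6 and 150 against 157, 236 and 322, again without overlap (-1.36, SE 0.30, adjusted p = 0.000329). Mcm4 (-1.30, adjusted p = 0.00793) and Mcm2 (-1.29, adjusted p = 0.000968) fell too. Over the 6 subunits, which act as 1 ring, the values ranged from -1.65 for Mcm3 to -0.56 for Mcm5, and differences between subunits were not tested. The 95% interval of Mcm5 ran from -1.26 to 0.14. Mcm7 (-0.77, edgeR adjusted p = 0.0570) passed with the DESeq2 test (adjusted p = 0.0411), with the stricter low-count filter of edgeR (0.0377) and with all embryos kept whatever their quality (0.0400). It also passed without TBP LOF embryo 6 (adjusted p = 0.0427), 8 (0.0126) or 10 (0.0297). Its overlap with opposite-strand exons is with Cops6 and Ap4m1.

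Of the remaining 3 MCM genes, 1 fell, beside 29.7% of all features. Mcm10, which helps to activate the helicase, had 2.90, 16.2 and 53.5 normalized counts in TBP LOF and 37.6, 79.2 and 116 in mIgG CONTROL (log2 fold change -1.85, SE 0.39, adjusted p = 0.000157). Of the 9 TBP LOF embryos, 7 were below the lowest control. Mcm8 and Mcm9, relatives of the helicase with roles in DNA repair, did not pass. Mcm9 had 30.2, 66.1 and 117 normalized counts against 44.7, 61.0 and 122, and the groups overlapped over most of their range (log2 fold change -0.24, SE 0.32, adjusted p = 0.633). Under TMM it was called higher (0.63, adjusted p = 0.0387). It shares 1748 exonic bases with Asf1a on the opposite strand. Mcm8 was near the limit of detection, with 0, 5.69 and 21.1 against 1.41, 7.40 and 18.6 normalized counts (-0.14, SE 0.65). Its sign turned without TBP LOF embryo 5 (0.05) or 11 (0.06) or mIgG CONTROL embryo 10 (0.19).

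Of the 7 genes that fire origins and build the CMG helicase, 6 fell, and this step held the lowest value of the set. Gins1, a subunit of the GINS tetramer, had 1.44, 3.59 and 6.30 normalized counts in TBP LOF and 12.1, 53.4 and 143 in mIgG CONTROL. The highest TBP LOF embryo was below the lowest control. Its log2 fold change was -4.13 (95% interval -5.002 to -3.26, adjusted p = 4.27e-10), and -3.09 under TMM (adjusted p = 1.45e-06). Gins3 had 5.26, 11.6 and 46.7 against 36.2, 71.6 and 231, with 8 of 9 TBP LOF embryos below the lowest control (-2.58, SE 0.39, adjusted p = 4.95e-07). Gins4 (-1.73, SE 0.33, adjusted p = 4.07e-05) and Gins2 (-1.18, SE 0.36, adjusted p = 0.00818) fell too, so that all 4 subunits were lower. Under TMM Gins2 was not called (-0.17, adjusted p = 0.743), and it shares 2758 exonic bases with Gse1 on the opposite strand.

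Of the kinase that triggers firing, the catalytic subunit fell and its activator did not pass. Cdc7, the catalytic subunit, had 0, 7.18 and 17.1 normalized counts in TBP LOF, with a read in 8 of 9 embryos, and 11.8, 33.0 and 43.8 in mIgG CONTROL. Of the TBP LOF embryos, 7 were below the lowest control (log2 fold change -2.31, SE 0.48, adjusted p = 0.000134). Dbf4, the activating subunit, had 199, 425 and 582 normalized counts against 290, 360 and 628, and 4 of 9 TBP LOF embryos were below the control median. Its log2 fold change was -0.13 (95% interval -0.69 to 0.44, adjusted p = 0.795), and under TMM it was called higher (0.74, adjusted p = 0.00599). The difference between these genes was not tested. Cdc45, which the helicase needs to become active, was lower (-1.21, SE 0.32, adjusted p = 0.00196), with 28.3, 130 and 264 against 248, 336 and 483 normalized counts.

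Of the 12 primase and polymerase genes, 6 fell, near the 49.8% of protein-coding genes with at least 10 normalized counts. Both primase subunits were among the 6. Prim1, the catalytic subunit, had 21.3, 44.1 and 74.2 normalized counts in TBP LOF and 71.6, 147 and 188 in mIgG CONTROL (log2 fold change -1.71, SE 0.31, adjusted p = 1.74e-05). Prim2 had 1.68, 13.96 and 21.5 against 18.8, 52.3 and 82.5 (-2.25, SE 0.42, adjusted p = 2.24e-05). For each, 8 of 9 TBP LOF embryos were below the lowest control. The polymerase delta subunit Pold2 was lower (-2.10, SE 0.52, adjusted p = 0.00115), from 14.8 normalized counts at the control median to 4.32, although 3 of 9 TBP LOF embryos were below the lowest control.

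The small polymerase epsilon subunits Pole3 and Pole4, which also bind histones, fell. Pole3 had 21.3, 48.9 and 85.4 normalized counts against 89.5, 122 and 237, without overlap (log2 fold change -1.40, SE 0.31, adjusted p = 0.000275). Pole4 was 2.03-fold lower (-1.02, SE 0.29, adjusted p = 0.00459), as was the accessory subunit of polymerase alpha, Pola2, at 1.99-fold (-0.99, SE 0.36, adjusted p = 0.0287). The 3 catalytic subunits did not pass: Pola1 was at -0.62 (adjusted p = 0.111), Pole at -0.36 (0.497) and Pold1 at 0.51 (0.698) in log2 fold change with edgeR. With the DESeq2 test Pola1 was called lower (-0.63, adjusted p = 0.0432). Pold1 rested on 47 reads in TBP LOF and 18 in mIgG CONTROL, and its 95% interval ran from -1.11 to 2.13. Pold3 (-0.43), Pold4 (-1.44) and Pole2 (-1.31) did not pass either, and Pold4 was at -2.15 without TBP LOF embryo 9. Pola2 missed the threshold without TBP LOF embryo 9 (adjusted p = 0.0541) or mIgG CONTROL embryo 5 (0.0518) or 8 (0.0723). Pole2 passed without TBP LOF embryo 2 (0.0281) or 10 (0.0183) or mIgG CONTROL embryo 2 (0.0495) or 4 (0.0467), and with no filter on low counts (0.0472).

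Of the clamp and its loader, 3 of 6 genes fell, near the 49.8% of protein-coding genes with at least 10 normalized counts. Pcna, the sliding clamp, had 43.6, 101 and 294 normalized counts in TBP LOF and 179, 320 and 523 in mIgG CONTROL, and 8 of 9 TBP LOF embryos were below the lowest control. The fitted log2 fold change was -1.43 (SE 0.32, adjusted p = 0.000274). The loader subunit Rfc4 was lower (-1.93, SE 0.50, adjusted p = 0.00177), with 0, 4.55 and 12.7 against 8.60, 21.5 and 30.6 normalized counts, and so was the large subunit Rfc1 (-0.81, SE 0.29, adjusted p = 0.0295), whose sign turned under TMM (0.06). Rfc5, another loader subunit, had 37.1, 66.8 and 105 against 29.7, 47.0 and 114 normalized counts, and 2 of 9 TBP LOF embryos were below the control median (0.23, SE 0.32, adjusted p = 0.641). Under TMM it was called higher (1.13, adjusted p = 0.000624), and its exons overlap those of Wsb2 on the opposite strand. Rfc2 (-0.72, adjusted p = 0.225) and Rfc3 (-0.98, adjusted p = 0.239) did not pass. Rfc1 missed the threshold without TBP LOF embryo 6 (adjusted p = 0.0569) or 9 (0.0554) or mIgG CONTROL embryo 8 (0.0601), and Rfc3 passed without TBP LOF embryo 8 (-1.61, adjusted p = 0.0436).

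RPA is a trimer, and 1 of its 3 genes fell, beside 29.7% of all features. Rpa2 had 42.1, 79.2 and 197 normalized counts in TBP LOF against 252, 309 and 687 in mIgG CONTROL, without overlap (log2 fold change -2.01, SE 0.31, adjusted p = 1.1e-06). Rpa1, the large DNA-binding subunit, was at -0.57 (SE 0.38, adjusted p = 0.274) and Rpa3 at -0.76 (SE 0.35, adjusted p = 0.0918), from 8.38, 61.0 and 83.4 against 28.4, 83.4 and 132 normalized counts. All 9 TBP LOF embryos were nevertheless below the control median for both, and Rpa3 passed without mIgG CONTROL embryo 1 (adjusted p = 0.0482).

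Of the 2 genes that finish Okazaki fragments, 1 fell. Fen1, the flap nuclease, had 8.52, 30.2 and 48.8 normalized counts in TBP LOF and 36.7, 67.1 and 141 in mIgG CONTROL (log2 fold change -1.55, SE 0.36, adjusted p = 0.000454). Its exons share 2039 bases with Tmem258 and Gm10143 on the opposite strand. Lig1, the ligase, had 1.196, 24.0 and 64.5 against 0, 9.89 and 26.9 normalized counts, and 3 of 9 TBP LOF embryos were below the control median. It had the highest log2 fold change of the 48 genes, 1.03 (95% interval -0.02 to 2.08, adjusted p = 0.135), and was called higher under TMM (1.81, adjusted p = 0.00796). Orc5, the origin recognition subunit called higher under TMM (1.05, adjusted p = 0.00251), had 28.7, 124 and 173 against 17.9, 92.6 and 139 normalized counts, with the groups overlapping.

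A list of 67 further replication genes outside the 48 gave 35 lower and 0 higher in TBP LOF with spike-in scaling (52.2%, beside 29.7% of all features), at a median log2 fold change of -0.99. Of the 57 with a mean of at least 10 normalized counts 33 were lower (57.9%), beside the 49.8% of protein-coding genes at that level. Under TMM 14 were lower (20.9%) and 11 higher (16.4%), beside 12.7% and 12.8% of all features, and 23.4% and 19.8% of protein-coding genes at that level. Of the list named nucleotide supply, 7 of 8 genes fell, among them Samhd1, which breaks down deoxynucleotides (log2 fold change -1.18, edgeR adjusted p = 0.00443), Rrm1, the large subunit of ribonucleotide reductase (11.7 ± 10.5 against 85.0 ± 32.5 normalized counts, SD, n = 9, log2 fold change -2.88, edgeR adjusted p = 2.68e-07), and Tyms, which makes thymidylate (15.7 ± 12.96 against 92.9 ± 35.8, n = 9, -2.58, adjusted p = 9.39e-07). Initiation and fork genes fell in 10 of 13, among them Clspn, a fork protein needed for checkpoint signalling (46.1 ± 29.5 against 251 ± 73.7, n = 9, -2.45, adjusted p = 8.62e-08). Other clamp loaders fell in 4 of 4, Okazaki and topology genes in 5 of 7 and chromatin assembly genes in 4 of 7. Of 8 checkpoint genes 2 were lower, and of 7 genes of licensing turnover 2. Differences between these groups of genes were not tested. Under TMM the counts were 4 lower and 1 higher for the nucleotide list, 3 and 1 for initiation and fork genes, 2 and 0 for other clamp loaders, 3 and 1 for Okazaki and topology genes and 1 and 1 for chromatin assembly. Checkpoint genes gave 0 lower and 1 higher under TMM, and licensing turnover 1 and 2. Of 13 genes for E2F factors and pocket proteins, 1 was lower, E2f7 (-1.41, adjusted p = 0.0265), a repressor of the family. The median of that list was -0.06, and under TMM 0 were lower and 4 higher. The smallest adjusted p among the 67 genes with a positive log2 fold change were those of E2f5 (0.35, adjusted p = 0.425), E2f8 (0.79, 0.499) and E2f2 (0.21, 0.744), none past the threshold with spike-ins.

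The FOXJ3 experiment asks the same of FOXJ3. Before its results, 1 of its controls needs describing, chosen here after its values were seen. Of the rIgG CONTROL embryos it had the pattern over these genes most like that of TBP LOF under TMM. Embryo 3 of batch 1 of rIgG CONTROL lay below the range of the other 12 controls for 14 replication genes and above it for 7. The share of all features outside that range was not computed, so these counts are not read as a trait of these genes. This embryo also had 18004 genes detected and 32.8% of its reads from TE families, each above the other 27 embryos. Gins1 was at 3.28 TMM-normalized counts there, against 29.9, 63.5 and 128 in the other 12, and Rpa2 at 76.6 against 227, 525 and 939. Orc5 was 2.77-fold, Lig1 2.67-fold and Rfc5 2.03-fold over the median of the others. As the embryo was chosen for its likeness to TBP LOF, these values are no separate result. Other genes went against the sign of TBP LOF under TMM. Pcna (-0.66 in TBP LOF) was 1.60-fold over that median, and Pole (0.49) and Mcm5 (0.28) were at 17.6% and 30.6% of it. The summed oocyte markers of embryo 3 were 4003 RPM and its 2-cell markers 895 RPM. Embryo 2 of the same batch followed with 2988 and 743 RPM. The other 27 embryos of the experiment had 788 to 2677 and 144 to 564 RPM. The part of these levels was not tested. Values without both embryos, a fit chosen after the data were seen, stand beside the results below.

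**Figure D4:**
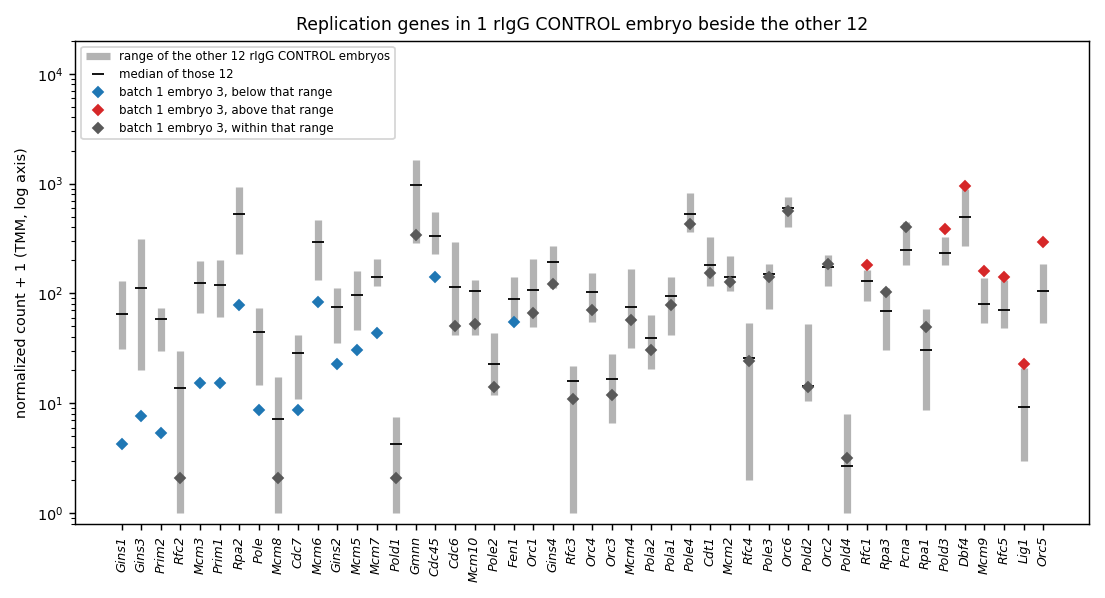
TMM-normalized counts plus 1 (y, log axis) of the 48 genes (x, ordered by the ratio of embryo 3 to the median of the others) in embryo 3 of batch 1 of rIgG CONTROL (diamonds), with the range (grey bars) and median (black ticks) of the other 12 controls. Blue diamonds mark the 14 genes below that range and red ones the 7 above it.

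After FOXJ3 LOF, 0 of the 48 genes passed the threshold (edgeR with TMM scaling and batch as a term), and 0 passed with DESeq2. At an unadjusted p below 0.05 there were 2, both higher, Pcna and Orc4, beside 1115 of all 19518 features in either direction. Of all 19518 features tested, 0.0102% were called. The median log2 fold change of the 48 genes was -0.07, beside -0.03 for all features, with a range from -0.52 to 0.45. It was -0.08 without embryo 3 and -0.08 without both embryos 2 and 3, with 0 called each time. Without both, 4 genes were at an unadjusted p below 0.05 (edgeR), Pcna higher and Gins1, Gmnn and Rfc4 lower. The share of all features at that level was not computed for this fit.

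The 3 genes with the smallest unadjusted p (edgeR) had the following spread. Pcna had 286, 390 and 487 normalized counts in FOXJ3 LOF and 181, 265 and 450 in rIgG CONTROL, and none of the 16 FOXJ3 LOF embryos was below the control median (log2 fold change 0.45, SE 0.14, edgeR adjusted p = 0.614). It was 0.39 in batch 1 and 0.50 in batch 2, and 0.58 without embryos 2 and 3 of rIgG CONTROL batch 1 (SE 0.12, adjusted p = 0.0922). Orc4 had 85.6, 126 and 185 against 53.8, 101 and 152 (0.40, SE 0.16, adjusted p = 0.805), and 0.30 without the pair (SE 0.15, adjusted p = 0.807). Gins1 had the lowest log2 fold change, -0.52 (SE 0.29, adjusted p = 0.903), at -0.11 in batch 1 and -1.06 in batch 2, with 16.4, 42.8 and 123.3 against 3.28, 59.8 and 128 normalized counts. Without the pair it was -0.76 (SE 0.22, adjusted p = 0.4661). The groups overlapped for all 3. The test of a difference between batches called 0 of the 48 genes and 0% of all features (edgeR). At an unadjusted p below 0.05 it held 2 of the 48, Mcm9 and Rfc5, beside 1553 of all 19518 features. Without the pair it again called 0, with Mcm2 and Rfc2 at an unadjusted p below 0.05. DESeq2 was not run for it.

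**Figure D5:**
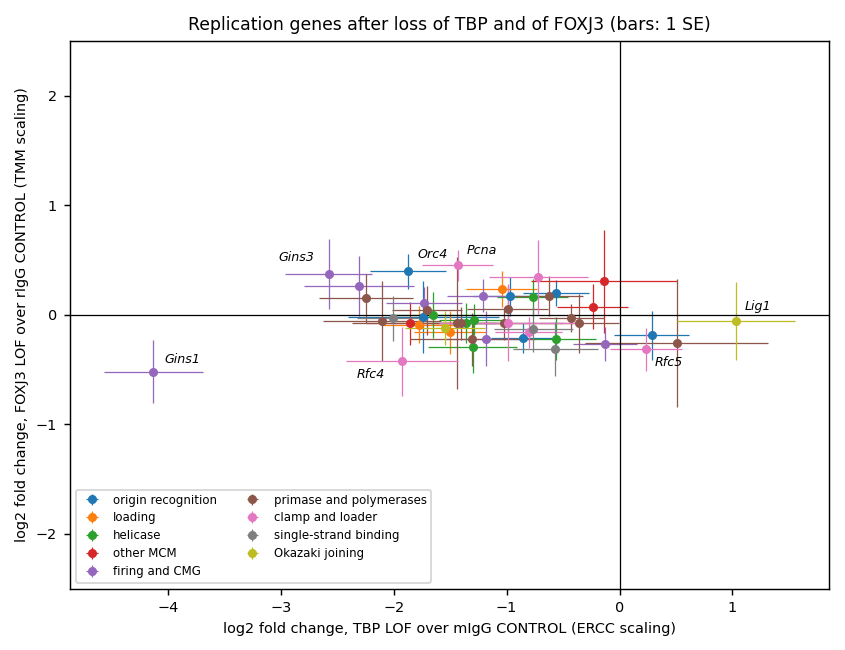
Log2 fold change of each of the 48 genes in TBP LOF (x, ERCC scaling) and in FOXJ3 LOF (y, TMM scaling) over its own control group, coloured by role, with bars of 1 SE. The genes spread from -4.13 to 1.03 along x and from -0.52 to 0.45 along y.

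The effects of TBP LOF and FOXJ3 LOF were set against each other in 1 fit of all 4 groups with spike-in scaling, each effect taken within its own experiment. The TBP effect was lower than the FOXJ3 effect for 28 of the 48 genes and higher for 0, beside 28.9% of all features called in either direction. The differences were -3.83 for Gins1 (SE 0.57, adjusted p = 4.73e-07), -2.49 for Orc4 (SE 0.39, adjusted p = 1.43e-06), -3.21 for Gins3 (SE 0.55, adjusted p = 6.29e-06) and -2.03 for Pcna (SE 0.39, adjusted p = 3.28e-05) on the log2 scale. For Dbf4 the difference was -0.04 (SE 0.36, adjusted p = 0.961). Without embryos 2 and 3 of rIgG CONTROL batch 1 the count was 24 lower and 0 higher, with -3.58 for Gins1, -2.40 for Orc4, -2.98 for Gins3, -2.14 for Pcna and -0.25 for Dbf4. Under TMM 9 genes differed downward and 4 upward, beside 21.6% of all features. The upward ones were Orc5, Dbf4, Rfc5 and Lig1, and without both embryos 9 differed downward and 3 upward, Lig1 no longer among them (1.69, edgeR adjusted p = 0.0589). For the fits without both embryos, the share of all features called was not computed with either scaling. The target and the experiment, with its own antibody and control, cannot be told apart in this contrast.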

How the data were processed

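Single late 2-cell embryos were measured with Smart-seq+5′, of which the 5′ reads were counted. The authors aligned reads with STAR 2.7.11a to GRCm38 and deposited estimated counts per gene and per transposable element (TE) family for each embryo, made with TEcount. These values are not normalized. Neither the strand setting nor the treatment of multi-mapping reads is given in the sources used here. Gene symbols, biotypes and exonic lengths were taken from the reference annotation.

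Groups came from the sample labels. Embryos were kept with at least 500000 reads and 1000 genes and at most 10% mitochondrial and 15% ERCC reads, which left 47 of 49. The deposited counts were whole numbers and were used without rounding. Features with at least 1 read in 25% of the embryos were tested with edgeR 4.0.16 (quasi-likelihood, two-sided, R 4.3.3) and adjusted by Benjamini-Hochberg over all genes and TE families, at a threshold of 0.05. The TBP experiment used median-of-ratios size factors from 42 ERCC transcripts, the FOXJ3 experiment TMM with batch as a term, and the fit of all groups 41 ERCC transcripts. DESeq2 1.42.0, other scalings and filters, replicate numbers as a block and leaving out each embryo were alternatives. The code was tested on simulated data. Intervals are from the fitted t distribution. P-values measure the spread between single embryos. The depth was 1103569 to 5434808 counted reads, and no libraries were identical.

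The genes, the further lists and the markers were chosen with earlier results of these data known. By the rule for named genes, all 48 genes were accounted for by role, with embryo values for the 2 of smallest adjusted p in each role, the 3 with log2 fold change nearest 0 and the 3 of smallest p in the FOXJ3 experiment. Values of other genes were added after they were seen. The labels do not say whether replicate numbers pair embryos across groups, and the main fits used no pairing. Between same-numbered embryos the correlation of deviations was -0.05 to 0.14 over 7 pairs in the TBP experiment. It was -0.21 to 0.27 over 12 pairs in the FOXJ3 experiment. Promoters came from RefSeq (GRCm38.p6), and 40 of 48 genes matched.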

Additional observations from a re-analysis of the deposited data

Results flagged for a closer look

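In the TBP experiment the highest and the lowest embryo of each group were compared with the nearest of the others for each of the 48 genes, and 12 of the 96 sets of embryos held 1 embryo far from the rest, all on the high side. Chance gives about 1 in 20 such sets for independent, normally distributed values, whereas these counts are skewed and the sets share the same embryos, so the 12 are not read against it. TBP LOF embryo 8 was the far one for 5 genes, Orc1 at 159 normalized counts (the next embryo had 60.9), Orc2 at 239 (150 in the next), Mcm4 at 88.1 (27.3), Pcna at 294 (170) and Rfc3 at 26.8 (12.2). This embryo had the lowest ERCC share of its group, 2.67%, which by the spike-in scaling raises its normalized counts and is no separate observation. TBP LOF embryo 10 stood apart for Mcm8 at 21.1 normalized counts (8.37 in the next) and Mcm9 at 117 (72.0).

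Among mIgG CONTROL embryos, Gmnn was at 1435 normalized counts in embryo 8 (956 in the next) and Mcm3 at 158 in embryo 6 (108). Embryo 10 held Mcm7 at 213 (156 in the next) and Mcm8 at 18.6 (8.95), and embryo 1 held Pold1 at 8.35 (3.44). The FOXJ3 LOF and rIgG CONTROL groups, of 16 and 13 embryos, and their batches were not compared in this way, and no difference of the FOXJ3 LOF effect between its batches passed the threshold for any of the 48 genes.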

How the results depend on the processing

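Scaling moved the results most. With TMM 13 of the 48 genes were lower and 5 higher in TBP LOF (median log2 fold change -0.44), and with DESeq2 size factors over genes and TE families 12 and 5 (median -0.42), against 29 and 0 with spike-ins. For the TBP experiment the shares of all features called were computed only for the main fit and for TMM. The counts of the other fits are therefore not read as a trait of these genes. The sign turned under TMM for Orc2 (0.29), Orc6 (0.043), Mcm5 (0.28), Mcm8 (0.67), Mcm9 (0.63), Dbf4 (0.74), Pole (0.49), Pola1 (0.21), Pold3 (0.44), Rfc1 (0.061), Rfc2 (0.011), Rpa1 (0.39) and Rpa3 (0.029). It turned under DESeq2 size factors for Orc2 (0.32), Orc6 (0.066), Mcm5 (0.30), Mcm7 (0.013), Mcm8 (0.69), Mcm9 (0.65), Dbf4 (0.78), Pole (0.52), Pola1 (0.22), Pold3 (0.48), Rfc1 (0.073), Rfc2 (0.019), Rpa1 (0.42) and Rpa3 (0.043). Summed ERCC reads, the DESeq2 test, other filters, all embryos without quality control and genes alone gave 27 to 31 lower and 0 higher. The fit of all groups called 28 genes, and 13 under TMM. The FOXJ3 LOF median was 0.13 with spike-ins and 0.055 in batch 2 alone, with 0 genes called under every alternative run. Leaving out 1 embryo at a time gave 26 to 31 lower and 0 to 0 higher, a median of -1.32 to -1.08, and for FOXJ3 0 to 0 called and a median of -0.08 to -0.0022. Mcm8 ranged from -0.65 to 0.19, above 0 without TBP LOF embryo 5 (0.046) or 11 (0.059) or mIgG CONTROL embryo 10 (0.19).

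The labels do not say whether a shared replicate number pairs embryos. With that number as a block, 28 genes were lower and 1 higher, Lig1 (1.32, edgeR adjusted p = 0.0271), over 7 shared numbers. The share of all features called was not computed for this fit. Against the main fit, Orc3 and Pola2 were lost and Mcm7 gained. The same embryos without that term, a fit chosen after seeing the data, gave 25 and 0, and Mcm8 at 0.052. Orc3 (edgeR adjusted p = 0.236), Pola2 (0.0972), Orc1 (0.0677) and Rfc1 (0.0845) missed the threshold there. Orc3 and Pola2 were thus lost with the smaller set of embryos, already without the block. In the FOXJ3 experiment the block called 0 genes (median 0.02). Pold1, Pold4, Mcm8 and Orc3 had the lowest levels of the set, each with a mean under 5 RPM in mIgG CONTROL. The part of few reads in their results was not tested.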

Other observations

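Over the 43 replication genes with a mean of at least 10 normalized counts, the pattern of embryo 3 of batch 1 of rIgG CONTROL (its log2 difference from the mean of the other rIgG CONTROL embryos, TMM) had a Spearman rho of 0.62 with the log2 fold changes of TBP LOF under TMM, and that of embryo 2 a rho of 0.62. The other 27 embryos of the FOXJ3 experiment had values from -0.54 to 0.34. Both embryos were picked out after their values were seen, embryo 3 for the highest rho of the rIgG CONTROL group. Its rho is thus the rule of choice and no separate result. The other 27 embryos were set against a mean that held embryos 2 and 3, which can lower their values. The points share library and depth, and no p is given. The spread of embryo 3 over the 43 genes was 1.40 (SD, log2), that of embryo 2 was 0.93, and no other embryo of the experiment was higher. In embryo 3, TE families took 32.8% of the reads and 18004 genes were detected, beside ranges of 14.6 to 31.0% and 13736 to 17688 genes in the other 27 embryos. Gins3 was at 5.94% and Prim2 at 7.57% of the median of the other 12 controls there, and Dbf4 was at 1.91-fold of it. These genes go with the likeness by which the embryo was chosen and are no separate result either.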
